A study of Mus with 16 samples.

Results

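The genes examined were 10 that encode AMPA and NMDA receptor subunits, out of 54219 genes in the count table, with *Grin3b* not included. They were taken by Ensembl identifier: *Grin1* (ENSMUSG00000026959), *Grin2a* (ENSMUSG00000059003), *Grin2b* (ENSMUSG00000030209), *Grin2c* (ENSMUSG00000020734), *Grin2d* (ENSMUSG00000002771), *Grin3a* (ENSMUSG00000039579), *Gria1* (ENSMUSG00000020524), *Gria2* (ENSMUSG00000033981), *Gria3* (ENSMUSG00000001986), and *Gria4* (ENSMUSG00000025892). All 10 passed the filter on low counts, which kept 17866 genes. mRNA-seq was performed on mouse forebrains at postnatal day 6 (P6), dissected as hippocampus and cortex. The 4 groups were wild-type (WT) males, *Kdm5c* hemizygous knockout males (*Kdm5c*-KO), WT females, and *Kdm5c* heterozygous females (*Kdm5c*-HET), with 4 animals each. The mutant allele lacks exons of *Kdm5c*, an X-linked gene for a histone demethylase, after Cre-mediated deletion, and the mice were of mixed 129S1/SvImJ and C57BL/6J background. The deleted allele was inherited, so neurons and glia alike carried it. *Kdm5c*-HET females keep an intact allele, and the gene partly escapes X-inactivation. The tissue was homogenized whole, so fewer cells of a type and less RNA per cell cannot be told apart.

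AMPA and NMDA receptors are glutamate-gated ion channels that carry fast excitatory transmission in the forebrain, and each is a tetramer. NMDA receptors pair the obligatory GluN1 subunit (*Grin1*) with GluN2 subunits (*Grin2a* to *Grin2d*), which set the channel's kinetics. Some also hold GluN3A (*Grin3a*), which lowers the channel's calcium permeability. In newborn cortex and hippocampus GluN2B, GluN2D, and GluN3A prevail, and GluN2A rises over the first postnatal weeks. The *Grin2a* to *Grin2b* ratio is therefore used as a measure of neuronal maturation. AMPA receptors are built from GluA1 to GluA4 (*Gria1* to *Gria4*), of which edited GluA2 makes the channel nearly impermeable to calcium.

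Total counts per animal ranged from 21513783 in a WT male to 30063352 in a WT female. Animals are named by the number and letter of their sample label. Its letter, D or E, is not explained by the labels and is uneven across groups: of the 8 animals with E, 3 are *Kdm5c*-HET females, 2 are WT females, 2 are *Kdm5c*-KO males, and 1 is a WT male. The animals came from several litters, and the labels do not say which animal came from which. The cortical excitatory neuron marker *Emx1* was at 27.4 to 41.0 CPM (counts scaled for library size by the TMM method) over the 16 animals, so it was present in every animal. *Ttr*, a gene of the choroid plexus, a tissue next to the hippocampus, had over 1000 counts in 6 animals (WT males 2D and 5D, WT females 1D and 3D, and *Kdm5c*-HET 8E and 9E) and between 6 and 125 counts in the other 10. Results are therefore also given without those animals where this changes a call. Among females this leaves WT 4E and 5E, both with letter E, and *Kdm5c*-HET 6E and 9D, so letter and genotype are then not balanced. *Kdm5c* itself was not analysed here.

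Among the 10 subunits, *Grin2d* and *Grin3a* were upregulated in *Kdm5c*-KO males and *Grin2d* in *Kdm5c*-HET females, by 12.5% to 24%. Of these calls, only that of *Grin2d* in males held in every other setting of the analysis, as given below. *Grin2a* was 18.6% lower in *Kdm5c*-KO males and narrowly missed the threshold, which was a false discovery rate-adjusted p-value (q) of 0.1 in edgeR's quasi-likelihood test over all genes tested. The other NMDA and all 4 AMPA receptor subunits passed the threshold in neither sex. By that rule 3.55% of all genes tested were upregulated in *Kdm5c*-KO males and 1.69% downregulated, and 2 of the 10 subunits were upregulated and 0 downregulated. In *Kdm5c*-HET females 0.481% of genes were upregulated and 0.028% downregulated, and 1 of the 10 subunits was upregulated. At an unadjusted p-value under 0.05 there were 4 subunits in males, where 16.5% of all genes tested had one, and 2 in females, where 6.49% did. The median Log2FC of the 10 subunits was 0.07 in males and 0.03 in females, beside -0.01 and -0.000803 for all genes tested.

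**Figure D1:**
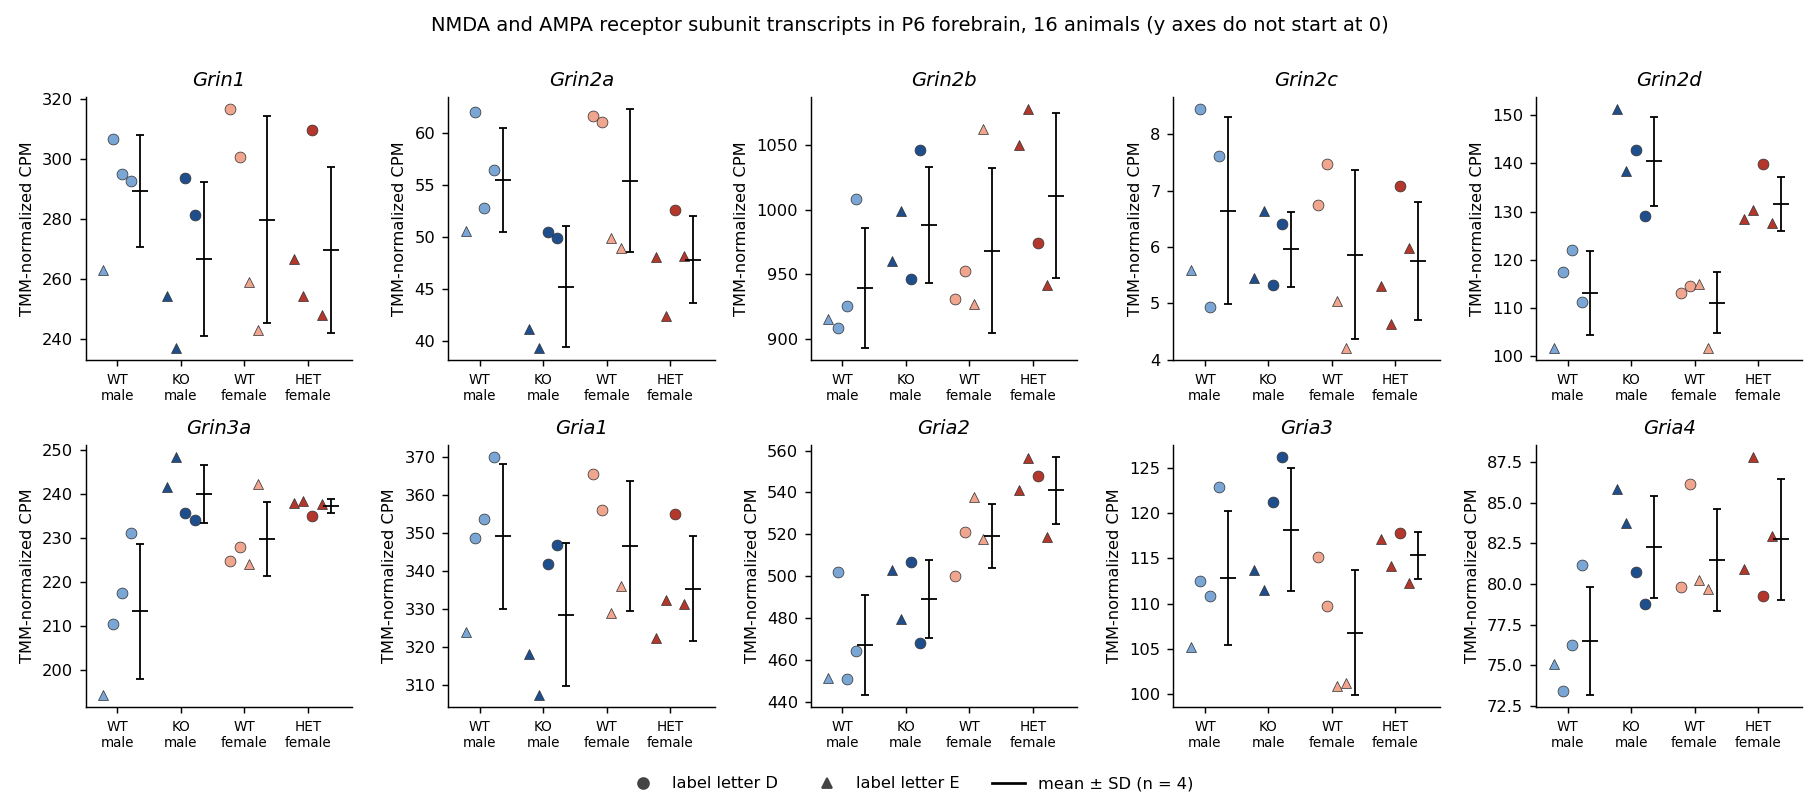
Normalized read counts (CPM) of each subunit transcript, 1 panel per gene and 1 point per animal by group, with circles for label letter D, triangles for E, and bars for the mean ± SD (n = 4). All 4 *Kdm5c*-KO and all 4 *Kdm5c*-HET points of *Grin2d* lie above those of the sex-matched WT animals, while in *Grin1* and *Gria1* every circle lies above every triangle.

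The subunits are first described by role, starting with the obligatory one. *Grin1* lies on chromosome 2 (chr2:25291177-25319187, mm10) and overlaps *Lrrc26* and *Grin1os*. Reads of overlapping genes may not be separable because the strand setting of the counting is not given, which also touches *Grin2a* (*Gm19143*), *Grin2b* (*Gm14329*, *Gm14330*, and *Gm26653*), *Grin3a* (*Ppp3r2*), and *Gria4* (*Gm46101*). In males it measured 289 ± 18.5 CPM in WT and 267 ± 25.5 CPM in *Kdm5c*-KO animals, and in females 280 ± 34.5 CPM in the WT group and 270 ± 27.7 CPM in the *Kdm5c*-HET group (SD, n = 4). The groups overlapped in both sexes (Male: Log2FC = -0.12, SE 0.08, q = 0.529; Female: Log2FC = -0.05, SE 0.08, q = 0.991).

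*Grin2a* encodes GluN2A, the subunit that rises with maturation, and lies on chromosome 16 (chr16:9567901-9996083). WT males had 50.54 (1E), 62.05 (2D), 52.82 (5D), and 56.43 CPM (7D), and *Kdm5c*-KO males had 41.09 (2E), 39.30 (3E), 50.52 (4D), and 49.91 CPM (6D). Every *Kdm5c*-KO male was below every WT male, but the highest *Kdm5c*-KO male and the lowest WT male were only hundredths of a CPM apart. Such complete separation occurred downward in 3.87% and upward in 5.04% of all genes tested. The change did not pass the threshold (Log2FC = -0.30, SE 0.10, q = 0.105). It passed in 7 of 22 other settings, among them DESeq2 (q = 0.0575) and the fit with the label letter as a covariate (q = 0.0121), and had q = 0.554 without WT males 2D and 5D.

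In females *Grin2a* was at 61.68 (1D), 61.12 (3D), 49.94 (4E), and 48.98 CPM (5E) in WT, and at 48.10 (6E), 42.42 (8E), 52.60 (9D), and 48.19 CPM (9E) in *Kdm5c*-HET animals. WT females fell into a higher pair with letter D and a lower pair with letter E, and the lower pair overlapped the *Kdm5c*-HET values. The difference did not pass the threshold (Log2FC = -0.21, SE 0.09, q = 0.706). Without the animals with over 1000 *Ttr* counts it was 0.02 (q = 0.988). This left WT females 4E and 5E against *Kdm5c*-HET 6E and 9D, so the balance of letters changed too. The parts of *Ttr* and letter in that shift were not tested separately. Adjusting for the letter over all animals gave a female Log2FC of -0.14 (SE 0.06, q = 0.412).

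*Grin2b*, on chromosome 6 (chr6:135713221-136173615), encodes GluN2B, the GluN2 subunit of immature synapses. In males it ranged from 908 to 1008 CPM in WT and from 946 to 1046 CPM in *Kdm5c*-KO animals, and in females from 927 to 1062 CPM in the WT group and from 942 to 1078 CPM in the *Kdm5c*-HET group. These ranges overlapped, and neither comparison passed the threshold (Male: Log2FC = 0.07, SE 0.05, q = 0.551; Female: Log2FC = 0.06, SE 0.05, q = 0.968). *Grin2c*, on chromosome 11 (chr11:115249169-115267297), encodes GluN2C, known mainly from the cerebellum. It had 96 to 226 counts per animal and 4.21 to 8.45 CPM over all 16, the widest range relative to its level among the 10 subunits (Male: Log2FC = -0.16, SE 0.19, q = 0.747; Female: Log2FC = -0.04, SE 0.19, q = 0.999).

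*Grin2d*, on chromosome 7 (chr7:45831883-45871194), encodes GluN2D, which gives slowly closing channels and is expressed early in life and in interneurons. It had 101.7 (1E), 117.5 (2D), 121.9 (5D), and 111.2 CPM (7D) in WT males, and 151.2 (2E), 138.5 (3E), 142.7 (4D), and 129.1 CPM (6D) in *Kdm5c*-KO males. It had 113.0 (1D), 114.6 (3D), 114.9 (4E), and 101.7 CPM (5E) in WT females, and 128.4 (6E), 130.4 (8E), 139.9 (9D), and 127.7 CPM (9E) in *Kdm5c*-HET females. All 8 mutants were thus above all 8 WT animals, irrespective of sex, a separation whose share over all genes was not counted. Within 1 sex, every mutant was above every WT animal for 5.04% of genes in males and 2.78% in females. In females every mutant was below every WT animal for 1.69%.

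*Grin2d* rose by 24% in *Kdm5c*-KO males (Log2FC = 0.31, SE 0.06, q = 0.00349) and by 18.4% in *Kdm5c*-HET females (Log2FC = 0.24, SE 0.06, q = 0.0947). The call in males held in all 22 other settings (q between 2.67e-06 and 0.0192). It also held without the animals with over 1000 *Ttr* counts (Log2FC = 0.40, q = 0.0180). The call in females held in 10 of the 22, among them DESeq2 (q = 0.0192) and the fit with the label letter (q = 0.0169), and was lost when any 1 of the 8 females was left out (q between 0.141 and 0.305). It was also lost without WT males 2D and 7D and *Kdm5c*-KO males 3E and 4D in turn (q between 0.112 and 0.142), and without the animals with over 1000 *Ttr* counts (Log2FC = 0.30, q = 0.429). The Log2FC in females was between 0.20 and 0.26 in the 22 settings. The inhibitory neuron markers chosen for comparison could not be matched to identifiers (0 of 9), so a shift in interneuron RNA was not tested.

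*Grin3a*, on chromosome 4 (chr4:49661611-49846023), encodes GluN3A, which peaks in the early postnatal forebrain and restrains synapse maturation. It had 194.3 (1E), 210.6 (2D), 217.6 (5D), and 231.2 CPM (7D) in WT males, and 241.7 (2E), 248.6 (3E), 235.8 (4D), and 234.0 CPM (6D) in *Kdm5c*-KO males. Every *Kdm5c*-KO male was above every WT male, and the WT males were spread more widely (SD 15.4 CPM) than the *Kdm5c*-KO males (SD 6.56 CPM). *Grin3a* rose by 12.5% in males (Log2FC = 0.17, SE 0.04, q = 0.0403). The call was lost without WT male 1E (q = 0.112), WT male 2D (q = 0.110), *Kdm5c*-KO male 2E (q = 0.101), or *Kdm5c*-KO male 3E (q = 0.122), with only the 8 males in the fit (q = 0.114), without WT males 2D and 5D (Log2FC = 0.17, q = 0.254), and without all animals with over 1000 *Ttr* counts (Log2FC = 0.18, q = 0.450). Its Log2FC was between 0.13 and 0.21 when each animal was left out in turn. In females it was at 224 to 242 CPM in WT and at 235 to 239 CPM in *Kdm5c*-HET animals, which overlapped (Log2FC = 0.05, SE 0.04, q = 0.975).

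None of the 4 AMPA receptor subunits passed the threshold for genotype in either sex, and *Gria4* in males had an unadjusted p-value under 0.05, as did 16.5% of all genes tested. *Gria1*, on chromosome 11 (chr11:57011571-57330244), encodes GluA1, the subunit delivered to synapses with activity. In males it measured 349 ± 19.1 CPM in WT and 328.5 ± 18.9 CPM in *Kdm5c*-KO animals, and in females 347 ± 17.1 CPM in the WT group and 335 ± 13.9 CPM in the *Kdm5c*-HET group (SD, n = 4), with overlap in both sexes (Male: Log2FC = -0.09, SE 0.05, q = 0.401; Female: Log2FC = -0.05, SE 0.05, q = 0.977).

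*Gria2*, on chromosome 3 (chr3:80681450-80804227), encodes GluA2. In males it measured 467 ± 24.1 CPM in WT and 489 ± 18.6 CPM in *Kdm5c*-KO animals, and in females 519 ± 15.4 CPM in the WT group and 541 ± 16.2 CPM in the *Kdm5c*-HET group. Neither genotype comparison passed the threshold (Male: Log2FC = 0.07, SE 0.04, q = 0.463; Female: Log2FC = 0.06, SE 0.04, q = 0.937).

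*Gria3*, the only X-linked member (chrX:41400819-41678601), encodes GluA3. It had 105 to 123 CPM in WT males and 111 to 126 CPM in *Kdm5c*-KO males (Log2FC = 0.07, SE 0.05, q = 0.593). In WT females it had 115.1 (1D), 109.7 (3D), 100.9 (4E), and 101.3 CPM (5E), and in *Kdm5c*-HET females 117.2 (6E), 114.1 (8E), 117.8 (9D), and 112.3 CPM (9E). Only WT female 1D lay within the *Kdm5c*-HET range (Log2FC = 0.11, SE 0.05, q = 0.776), and the value nearest to the threshold came from the fit with the label letter (Log2FC = 0.14, q = 0.110).

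*Gria4*, on chromosome 9 (chr9:4417893-4796234), encodes GluA4, which is known for fast channels and early postnatal expression. It had 73.4 to 81.2 CPM in WT males and 78.7 to 85.9 CPM in *Kdm5c*-KO males, which overlapped (Log2FC = 0.11, SE 0.05, q = 0.256). In females it had 79.7 to 86.2 CPM in WT and 79.3 to 87.9 CPM in *Kdm5c*-HET animals (Log2FC = 0.02, SE 0.05, q = 0.993).

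**Figure D2:**
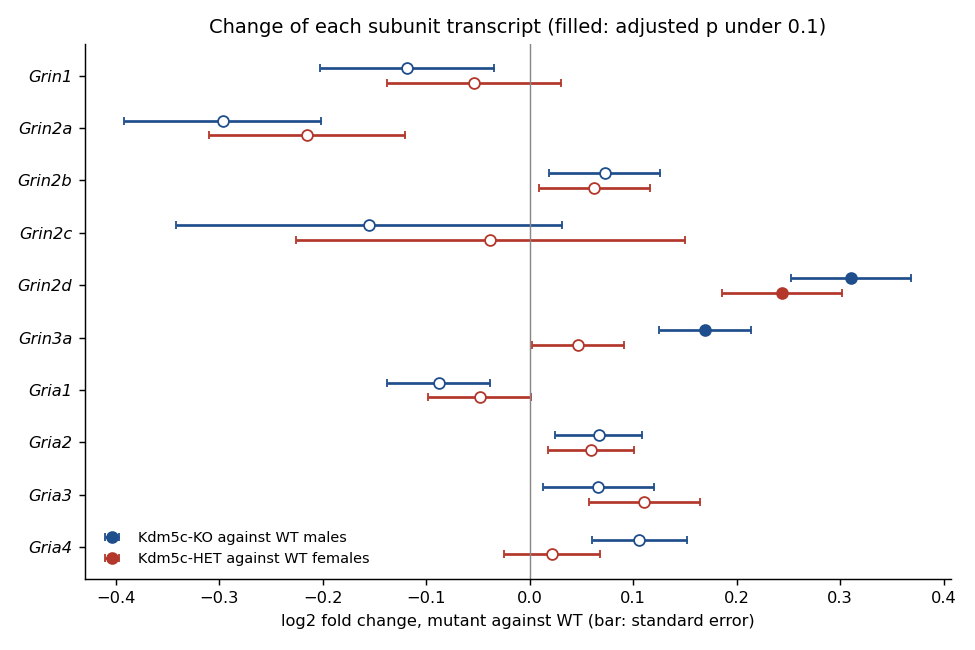
Log2FC of each subunit in *Kdm5c*-KO against WT males (blue) and *Kdm5c*-HET against WT females (red), with bars for the standard error and filled points for q under 0.1. *Grin2d* is filled in both sexes and *Grin3a* in males, and *Grin2a* lies farthest to the left in both sexes without passing the threshold.

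Whether the mutation acted differently in the 2 sexes was tested as the difference between the male and female Log2FC. None of the 10 subunits passed in edgeR (0 at an unadjusted p-value under 0.05, q between 0.777 and 0.993) or in DESeq2 (0 of 10), where 0.0392% of all genes did in edgeR and 6.37% had an unadjusted p-value under 0.05. For *Grin3a*, called in males only, the difference was 0.12 (SE 0.06, q = 0.777), so a difference between the sexes was not shown. For *Grin2d* it was 0.07 (SE 0.08, q = 0.928) and for *Grin2a* -0.08 (SE 0.13, q = 0.950).

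Sex itself was compared in the WT animals, where 2.59% of genes were higher in females and 2.41% lower. Of the subunits, *Gria2* was 11.1% higher in WT females (Log2FC = 0.15, SE 0.04, q = 0.0626). Its values were 451.3 (1E), 502.0 (2D), 450.7 (5D), and 464.1 CPM (7D) in WT males, and 500.0 (1D), 521.0 (3D), 537.7 (4E), and 517.8 CPM (5E) in WT females. The groups overlapped through WT male 2D, which was above WT female 1D. The call was lost without WT male 1E, 5D, or 7D or WT female 3D, 4E, or 5E (q between 0.105 and 0.211), with only the 8 animals compared (q = 0.105), without WT males 2D and 5D (Log2FC = 0.18, q = 0.218), and without all animals with over 1000 *Ttr* counts (Log2FC = 0.20, q = 0.276). Its Log2FC was between 0.14 and 0.19 when each animal was left out in turn. *Grin3a* had a Log2FC of 0.11 in WT females (SE 0.04, q = 0.209), and the other 8 subunits had q between 0.301 and 0.998.

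The balance between subunits was compared next by ratios of raw counts within each animal, in which library size cancels. A ratio depends on the lengths of both transcripts, so its level has no meaning by itself and only its differences between animals are read. Exact two-sided permutation tests were run on log2 ratios for 5 ratios in 4 comparisons, 20 tests in all, and p-values were adjusted over them. With 4 animals against 4 no p-value can be below 0.0286. Of the 20 tests, 2 reached that p-value, and 0 passed an adjusted p-value of 0.1.

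The *Grin2a* to *Grin2b* ratio was 0.0552 (1E), 0.0683 (2D), 0.0571 (5D), and 0.0560 (7D) in WT males, and 0.0428 (2E), 0.0394 (3E), 0.0534 (4D), and 0.0477 (6D) in *Kdm5c*-KO males. All *Kdm5c*-KO males were below all WT males. The geometric mean of the ratio was lower by 22.7% (log2 difference -0.37, exact permutation p = 0.0286, the smallest possible; adjusted p = 0.286).

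In females the ratio was 0.0663 (1D), 0.0641 (3D), 0.0539 (4E), and 0.0461 (5E) in WT, and 0.0458 (6E), 0.0394 (8E), 0.0540 (9D), and 0.0512 (9E) in *Kdm5c*-HET animals. The groups overlapped, and the difference of -0.27 had an exact permutation p = 0.143 (adjusted p = 0.571). The male and female differences were not distinguishable (-0.10, exact permutation p = 0.699), and WT females and WT males had overlapping ratios (-0.05, exact permutation p = 0.686).

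Within each of the 4 groups, every animal with letter D had a higher ratio than every animal with letter E. The ratio was therefore also compared within letters. Among males the difference was -0.25 in D (2 *Kdm5c*-KO and 3 WT) and -0.43 in E (2 *Kdm5c*-KO and 1 WT), and the mean weighted by the number of animals was -0.32 (exact permutation within letters, p = 0.0333, the smallest possible). Among females it was -0.27 in D (1 *Kdm5c*-HET and 2 WT) and -0.14 in E (3 *Kdm5c*-HET and 2 WT), with a weighted mean of -0.19 (exact permutation within letters, p = 0.133). Without WT males 2D and 5D the male difference was -0.29 (exact permutation p = 0.133), and without all animals with over 1000 *Ttr* counts the female difference was -0.0032 (exact permutation p = 1). The latter set WT females 4E and 5E against *Kdm5c*-HET 6E and 9D, so the letter differed along with genotype. With 6 arrangements, no small p-value was possible there. The male test without WT males 2D and 5D had 15 arrangements, which also limits its p-value. In it all *Kdm5c*-KO ratios, at most 0.0534, were still below those of WT males 1E (0.0552) and 7D (0.0560).

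**Figure D3:**
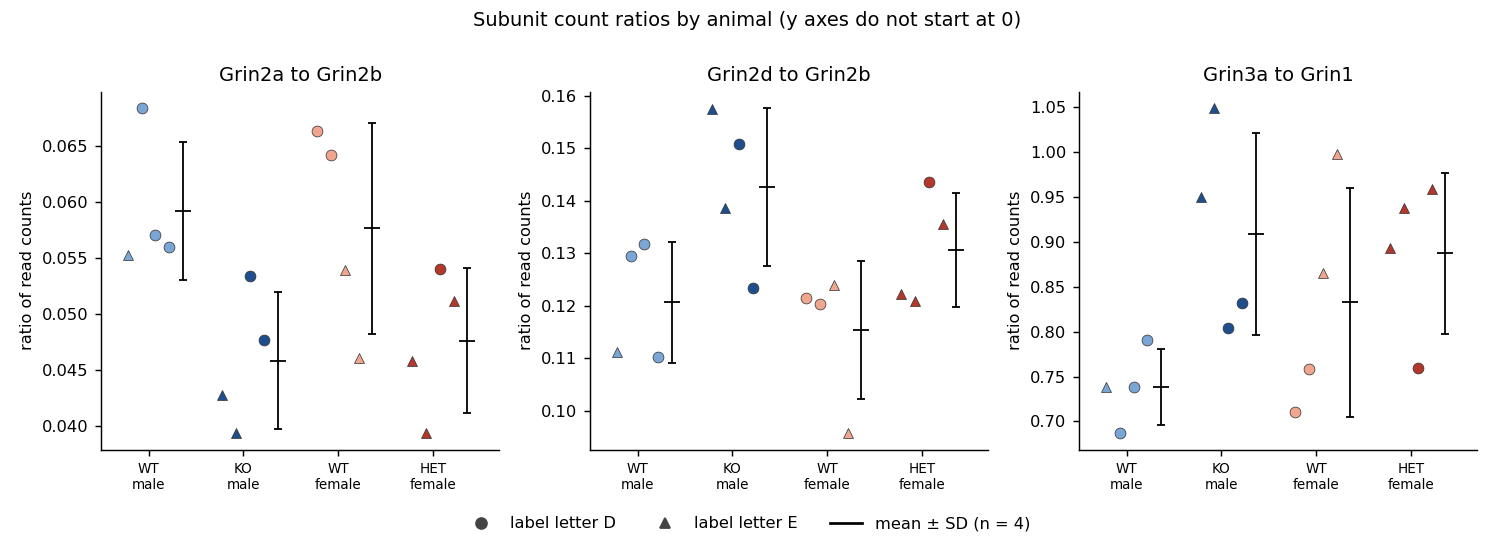
Ratios of raw read counts of 3 pairs of NMDA receptor subunits, 1 point per animal, with circles for label letter D, triangles for E, and bars for the mean ± SD (n = 4). The *Grin2a* to *Grin2b* ratio of all 4 *Kdm5c*-KO males lies below that of all 4 WT males, and their *Grin3a* to *Grin1* ratio above.

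The *Grin3a* to *Grin1* ratio was 0.738 ± 0.0423 in WT males and 0.909 ± 0.113 in *Kdm5c*-KO males (SD, n = 4), without overlap (difference 0.29, exact permutation p = 0.0286, adjusted p = 0.286). In females it was 0.833 ± 0.127 in WT and 0.887 ± 0.0897 in *Kdm5c*-HET animals (difference 0.10, exact permutation p = 0.486). The female difference was 0.02 within letters and -0.17 without the animals with over 1000 *Ttr* counts, where both remaining WT females have letter E. The *Grin2d* to *Grin2b* ratio was 0.121 ± 0.0115 in WT and 0.143 ± 0.0150 in *Kdm5c*-KO males (exact permutation p = 0.0857), and 0.115 ± 0.0132 in WT and 0.131 ± 0.0109 in *Kdm5c*-HET females (exact permutation p = 0.171), with overlap in both sexes. The ratio of *Gria2* to the other AMPA receptor subunits differed most between WT females and WT males (difference 0.16, exact permutation p = 0.0857). The ratio of summed AMPA to summed NMDA receptor subunit counts in males was 0.622 ± 0.0152 in WT and 0.604 ± 0.0214 in *Kdm5c*-KO animals, and in females 0.639 ± 0.0231 in WT and 0.631 ± 0.0168 in *Kdm5c*-HET animals, with overlap in each comparison.

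Apart from genotype, the subunits varied with the letter of the sample label. *Grin1* lay between 281 and 317 CPM in the 8 animals with D and between 237 and 267 CPM in the 8 with E, and *Gria1* between 342 and 370 CPM in D and between 307 and 336 CPM in E. Neither pair of ranges overlapped, whatever the genotype or sex, and the share of all genes separated in this way was not counted. In the fit with the letter as a covariate, 5 of the 10 subunits were lower in E and 0 higher, where 12% of all genes were lower and 11.6% higher. The 5 were *Grin1* (Log2FC = -0.25, SE 0.03, q = 1.68e-06), *Grin2a* (-0.26, SE 0.04, q = 0.000105), *Gria1* (-0.13, SE 0.02, q = 0.000201), *Gria3* (-0.12, SE 0.03, q = 0.00447), and *Grin2c* (-0.32, SE 0.12, q = 0.0706). *Grin2b*, *Grin2d*, *Grin3a*, *Gria2*, and *Gria4* had q between 0.324 and 0.971. The letter was not among the study's groups, and this comparison was added after the data were seen.

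**Figure D4:**
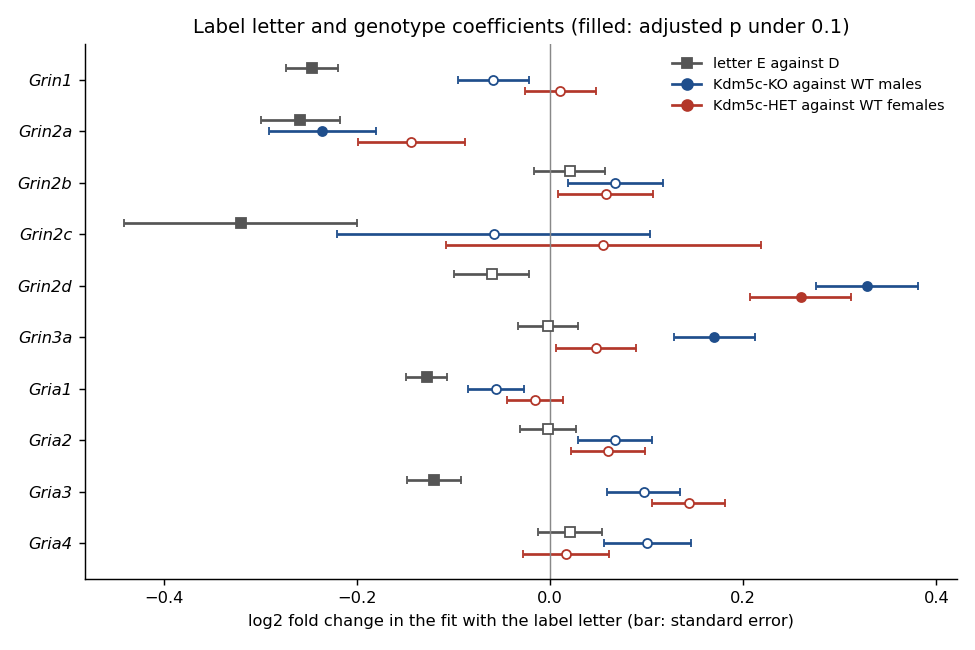
Log2FC with standard error from 1 fit holding group and label letter, for letter E against D (squares), *Kdm5c*-KO against WT males (blue), and *Kdm5c*-HET against WT females (red), filled where q is under 0.1. *Grin1*, *Gria1*, *Gria3*, and *Grin2c* are filled for the letter alone, *Grin2d* and *Grin3a* for genotype alone, and *Grin2a* for both.

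With the letter held constant, 3 subunits passed in males: *Grin2d* (Log2FC = 0.33, SE 0.05, q = 0.000388), *Grin3a* (0.17, SE 0.04, q = 0.0169), and *Grin2a* (-0.24, SE 0.06, q = 0.0121). In that fit 4.8% of all genes were upregulated and 3.42% downregulated in males. In females *Grin2d* alone passed (0.26, SE 0.05, q = 0.0169), where 0.806% of all genes were upregulated and 0.0728% downregulated. Fits of 1 letter at a time gave *Grin2d* a Log2FC of 0.23 in D (q = 0.0565) and 0.51 in E (q = 0.00141) in males, and of 0.30 in D (q = 0.307) and 0.25 in E (q = 0.0632) in females. *Grin3a* had 0.11 in D (q = 0.359) and 0.34 in E (q = 0.00660) in males, and *Grin2a* had -0.17 in D (q = 0.271) and -0.33 in E (q = 0.0978). The E fits in males rest on WT male 1E alone, which had the lowest *Grin2d* and *Grin3a* of the WT males, and the D fits in females on *Kdm5c*-HET 9D alone. A lone animal is assumed to vary like those of the other groups.

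After the group means were subtracted, the 16 animals still ordered some subunits alike. Of the 45 pairs of subunits, Pearson's r of log2 CPM was highest for *Grin1* and *Grin2a* (0.89) and for *Gria1* and *Gria3* (0.89), and lowest for *Grin2b* and *Grin2d* (-0.51). These values are descriptions over 16 animals that share the letters D and E. Genes most like a subunit were searched among 649 genes with a symbol and a mean of at least 10 CPM. Apart from the subunits, symbols were at hand only for genes that the study had called in these animals. All other genes tested were not searched, so closer matches may exist. Within this set, those most like *Grin2a* were *Camta2* (0.94), *Tmem132b* (0.93), and *Dlg4* (0.93). Those most like *Grin2b* included *Tcf20* (0.83) and *Rpp25* (0.77), and those most like *Grin2d* were *Myo18b* (0.81), *Rapgefl1* (0.71), and *Caskin1* (0.71).

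Other genes of glutamate signalling and neuronal maturation were measured for comparison. Symbols were at hand only for genes that the study had called in these animals, which paired 8 of them with an identifier, so neither their counts nor their direction are independent evidence. In *Kdm5c*-KO males 1 of the 8 was upregulated and 3 downregulated in edgeR, against 2 and 5 in both DESeq2 and the fit with the label letter. Of all genes tested, 3.55% were up and 1.69% down in edgeR, and 4.8% and 3.42% with the letter. In DESeq2, 745 of 17866 genes were up and 387 down in males. *Grm3*, a metabotropic glutamate receptor, rose (Log2FC = 0.17, SE 0.05, q = 0.0590). Those that fell included *Cacng7*, an auxiliary subunit of AMPA receptors (-0.15, SE 0.05, q = 0.0760), and *Nrgn*, a calmodulin-binding protein of mature neurons (-0.33, SE 0.10, q = 0.0701). The kainate receptor subunit *Grik2* (0.15, SE 0.05, q = 0.106), the scaffolds *Dlg4* (-0.20, SE 0.06, q = 0.110) and *Shank1* (-0.11, SE 0.04, q = 0.165), and *Hpca* (-0.27, SE 0.09, q = 0.119) did not pass in edgeR, and of these 4 *Shank1* alone did not pass in DESeq2 or with the label letter either. In *Kdm5c*-HET females 0 of the 8 passed in edgeR or DESeq2, and 1 had an unadjusted p-value under 0.05. Of all genes tested in females, 0.481% were up and 0.028% down in edgeR, and 6.49% had such a p-value there. DESeq2 called 128 of 17866 genes up and 14 down in females. *Dlg4*, *Nrgn*, and *Hpca* were also lower in E than in D (Log2FC from -0.27 to -0.18, q between 6.46e-06 and 0.000110).

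Of 48 cell type markers, 6 had an identifier, again only because the study had called them in these animals, so their count says nothing of cell type markers as a class. In *Kdm5c*-KO males 4 of the 6 passed, all lower, where 1.69% of all genes were downregulated. Among them were *Ttr* (Log2FC = -5.76, q = 0.0643) and *Aqp1* (-2.0, q = 0.0642) of the choroid plexus and *Emx1* of cortical excitatory neurons (-0.23, q = 0.0948). *Ttr* was at 0.277 to 202 CPM in WT males and 1.59 to 2.21 CPM in *Kdm5c*-KO males. The astrocyte marker *Aqp4* had a Log2FC of -0.24 (q = 0.115). In females 0 of the 6 passed in edgeR, where 1 had an unadjusted p-value under 0.05, and 1 passed in DESeq2. Of all genes tested in females, 0.481% were up and 0.028% down in edgeR, and 6.49% had such a p-value there. DESeq2 called 128 of 17866 genes up and 14 down in females. The part of these markers in the subunit results was not tested beyond the fits without the animals rich in *Ttr*.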

How the data were processed

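Libraries of poly(A)-enriched RNA were made with a directional kit, and the authors mapped the paired reads to mm10 with STAR 2.5.3a and counted them with featureCounts (Subread 1.5.0), per the methods and the submitters' processing notes. The authors deposited raw counts for 54219 Ensembl genes, without normalization; the strand setting is not given in the sources used here. The counts were tested with edgeR 4.0.16 in R 4.3.3 (filterByExpr, TMM, glmQLFit and glmQLFTest, 1 mean per group over all 16 animals, no covariate). p-values were adjusted by Benjamini-Hochberg over 17866 genes, and q under 0.1 was called, as in the study. CPM are TMM-normalized; for correlations they were log2-transformed (prior count 2). The steps were tested on simulated data. Ratios of raw counts were compared with exact permutation tests that went through all arrangements (own code in Python 3.11.15). Over 24 pairs of animals within groups, the chi-square statistic per gene was 2.89 to 15.2, above sampling noise, so each animal was 1 replicate.

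The 10 subunits, the lists, and the tests were chosen with earlier results of these data known. Named genes were all 10 subunits, up to 4 called genes per list with the smallest q, markers that moved, and the 3 genes most like *Grin2a*, *Grin2b*, and *Grin2d*; list genes that did not pass were named after their values were seen, and some genes under this rule are counted but not reported here by name. Symbols came from the study's table of called genes (1020 genes), which matched 14 of 137 list genes, so lists were neither counted as a whole nor tested. Coordinates were looked up by symbol in RefSeq's GRCm38.p6 (mm10) annotation. The other settings were DESeq2 1.42.0, its size factors, no filter, at least 10 counts in every animal, only the 8 animals compared, the label letter as a covariate, a threshold of 0.05, and leaving out each animal; for ratios, shares, permutation within letters, and leaving out each animal. Fits of 1 letter, and without *Ttr*-rich animals, were added after the data were seen.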

Additional observations from a re-analysis of the deposited data

Results flagged for a closer look

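In 60 groups of 4 animals (10 subunits and 5 ratios in 4 groups each), the gap between the most extreme animal and its nearest neighbour was compared with the range of the group by Dixon's criterion, which chance passes in about 1 in 20 groups. It was passed 4 times. *Grin2d* was at 101.691 CPM in WT female 5E, below the other 3 WT females, and the *Grin2d* to *Grin2b* ratio of the same animal was 0.0957192, also the lowest of its group. *Gria4* was at 86.1825 CPM in WT female 3D, above the other WT females. The *Grin2a* to *Grin2b* ratio was 0.068324 in WT male 2D, above the other WT males.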

How the results depend on the processing

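No call on a subunit or ratio reversed its direction in any alternative. In males the number of subunits called was 1 with only the 8 animals compared, without WT males 2D and 5D, without the 6 animals with over 1000 *Ttr* counts, and with letter D alone, and 1 to 3 when each animal was left out in turn. *Grin2d* was called throughout. In females the number was 0 at a threshold of 0.05, with letter D alone, and without the *Ttr*-rich animals, and 0 to 1 when each animal was left out, 0 in 12 of 16 fits. Between WT females and males it was 0 at a threshold of 0.05, with only the 8 animals compared, without WT males 2D and 5D, without the *Ttr*-rich animals, and with letter D alone, 2 with letter E alone (which holds 1 WT male, assumed to vary like the other animals), and 0 to 1 when each animal was left out, 0 in 6 of 16. The cause was not tested, and apart from the threshold of 0.05 these settings hold fewer animals. No ratio had an adjusted p-value under 0.1 in any setting, which says nothing of stability, since so few animals allow hardly any such value over 20 tests. No paired analysis was possible because the groups compared share no replicate names. The label letter, whose meaning is not given, was the only block tried. *Grin2c* had the fewest counts, 96 to 226 per animal, which limits its precision most.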
